A study of Mus musculus with 3 samples.

Results

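The 9 genes *Gpihbp1*, *Cd36*, *Fabp4*, *Fabp5*, *Lpl*, *Aqp7*, *Meox2*, *Tcf15* and *Pparg* encode proteins by which capillary endothelium takes up fatty acids and glycerol, together with transcription factors tied to that function. They were chosen by name, with earlier results of these data known. All 9 were found among the 31053 genes counted in every library. Their transcripts were followed in endothelial cells (EC) of mouse Peyer's patches (PP), the lymphoid follicles of the small intestine, by droplet single-cell RNA sequencing. One question was how their levels in lamina propria capillaries (LP CapEC) compared with those in PP capillaries (PP CapEC) and in the other blood EC. The other was how they compared between mice with and without forced endothelial expression of COUP-TFII, the transcription factor of venous EC that *Nr2f2* encodes.

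The series held 1 control library, labelled WT and of strain C57BL/6, and 2 EC-iCOUP_OE libraries, labelled CDH5(PAC)CreERT2;COUP-TFIIOE/OE, replicates 1 and 2. In EC-iCOUP_OE mice the *Cdh5* promoter drives a tamoxifen-dependent Cre recombinase in endothelium, which switches on a COUP-TFII transgene. All mice were 6 to 10 weeks of age, and cells were isolated 14 to 19 days after tamoxifen. The study's methods describe Cre-negative mice given tamoxifen and wild-type mice as controls, and which of them entered the control library is not stated. Males and females were processed together, and the number of mice per library was not given. Libraries of a genotype may therefore differ by mice or by handling alone, and 1 control library allows no test between genotypes. Differences are given per library, and a gene is said to pass the size rule where it was at least 2-fold higher, or at least 2-fold lower, in every library compared.

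Capillaries of oxidative tissues and fat draw fatty acids from circulating triglyceride. Lipoprotein lipase, the product of *Lpl*, is made by parenchymal and stromal cells, and GPIHBP1 carries it across the capillary wall and anchors it on the luminal face. The freed fatty acids enter the EC through the scavenger receptor CD36 and are bound in the cytosol by FABP4 and FABP5, while AQP7 is a channel for glycerol. MEOX2 and TCF15 act as a heterodimer that promotes fatty acid uptake genes in heart endothelium. PPARG is the lipid-sensing nuclear receptor for which *Fabp4* and *Cd36* are well-known targets. In the gut wall, absorbed fat leaves mainly as chylomicrons through lymphatics, and the blood capillaries of the villi take up other nutrients.

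The libraries held 17341398, 17417260 and 3548983 unique molecular identifiers (UMIs, which count captured transcripts) in 6080, 4959 and 1441 cell barcodes in the order control, replicate 1 and replicate 2. Although all were labelled blood endothelial cells, they differed in their other cells, with 2477 fibroblasts in the control and 10 and 7 in the EC-iCOUP_OE libraries, and with 6 lymphatic EC in the control against 919 and 127. Control and replicate 2 shared 12 barcodes, and no other pair shared any. Blood EC numbered 6973 and were divided into subsets by clustering from which the 9 genes and 73 further lipid genes had been left out. LP CapEC held 111, 118 and 40 cells, PP CapEC 854, 1180 and 528, and capillary resident progenitors (CRP), an angiogenic capillary population, 27, 73 and 30. Of the 53 cells in the CRP group that carried a label of the study, 27 were labelled CRP and 26 PP CapEC. The others were arterial EC, post-capillary venules (PCV), high endothelial cells (HEC) that line the venules where lymphocytes enter, and dividing EC, while 2 groups are called by their leading genes *Enpp6* and *Bmp2*. These 2 scored highest for the arterial list but had none of its markers among their 10 leading genes, and the most frequent study label in them was PP CapEC. *Nr2f2* was at 10.4 CPM (counts of the gene scaled to 1000000 UMIs of the summed cells) in LP CapEC and 17.3 CPM in PP CapEC of the control, and at 1538 and 1959 CPM in replicate 1 and 1229.6 and 1168 CPM in replicate 2.

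The LP CapEC group was the single cluster in which the study's LP label was the most frequent. Of its 74 cells that carried a label of the study, 35 were LP CapEC, 27 PP CapEC and 12 CRP. All 6 capillary markers and all 8 blood endothelial markers were detected in it in each library, which asks for no more than 1 UMI each. Over the libraries together all 6 CRP markers were detected too, and its highest marker score was for the CRP list. Neither a capillary nor a CRP marker was among its 10 leading genes. Relative to PP CapEC it had less *Plvap*, the component of fenestral diaphragms, at 1038, 2493 and 2534 CPM against 4178, 5005 and 4809.6 CPM, and more of the tight junction gene *Cldn5*, at 688, 548 and 952 CPM against 39.0, 99.9 and 49.4 CPM. Neither trait was particular to LP CapEC. CRP had *Plvap* at 801, 1003 and 1624 CPM and *Cldn5* at 1196, 1904 and 1444 CPM. The *Bmp2*-led EC had *Plvap* at 1008, 2940 and 2487 CPM and *Cldn5* at 597, 874 and 610 CPM. *Gpihbp1* led the 10 most enriched genes of LP CapEC and *Aqp7* was among them, although neither gene took part in the clustering. The contrast of LP with PP capillaries is a description of clusters of the same cells and carries no test.

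*Gpihbp1* (chromosome 15, 75596628 to 75599481, plus strand, GRCm38) was highest in LP CapEC and CRP among the blood EC subsets. In LP CapEC it was at 1778 CPM (95% counting interval 1595 to 1977) in the control, 465 CPM (400.02 to 537) in replicate 1 and 428 CPM (306 to 582) in replicate 2. In PP CapEC the same libraries gave 209.8 CPM (188 to 234), 56.3 CPM (48.5 to 65.0) and 86.9 CPM (70.8 to 105.5). Within every library the LP interval lay wholly above the PP interval. PP CapEC were not uniform, however. A small PP cluster led by *Car4*, *Esm1* and *Chrm2* had 385, 639 and 305 CPM, from 34, 14 and 15 UMIs in 45, 9 and 21 cells. In replicate 1 its level was above that of LP CapEC, an order that 14 UMIs leave uncertain. Its 10 leading genes held 2 capillary and 2 CRP markers, and all 24 of its cells with a study label were PP CapEC. CRP stood at 1284, 1118 and 1191 CPM. LP CapEC thus ranked above CRP in the control and CRP ranked above LP CapEC in both EC-iCOUP_OE libraries, with intervals apart in all 3. Arterial EC had 67.0, 7.88 and 91.7 CPM and PCV 16.8, 1.25 and 0 CPM, so venous EC were nearly without the transcript.

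The share of cells with a *Gpihbp1* UMI followed the same order. After each cell was thinned to 1000 UMIs, 74.8% of control LP CapEC had at least 1 *Gpihbp1* UMI (exact 95% interval 65.6 to 82.5%), against 13.6% (11.4 to 16.1%) of control PP CapEC. In the EC-iCOUP_OE libraries the shares were 28.8% (20.8 to 37.9%) and 20% (9.05 to 35.6%) in LP CapEC, and 4.32% and 5.11% in PP CapEC. Without thinning the LP shares were 80.2%, 43.2% and 40.0%, and the PP shares 20.1%, 6.44% and 9.09%. Control fibroblasts, which should lack the gene, gave 0.20% thinned (median 2760.0 UMIs per cell, against 1428 in control LP CapEC). The thinned shares of the control lay above that background. It was not measured in the EC-iCOUP_OE libraries, which held 10 and 7 fibroblasts.

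Because PP CapEC outnumber the other capillary cells, they still carried much of the transcript. LP CapEC were 4.50% of control blood EC and held 36.5% of their *Gpihbp1* UMIs, and PP CapEC held 35.1%. In the EC-iCOUP_OE libraries LP CapEC held 21.3% and 14.2%. CRP, at 2.08% and 3.01% of cells, held 41.7% and 40.1% of the UMIs there, against 12.5% in the control, where they were 1.09% of cells.

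**Figure D1:**
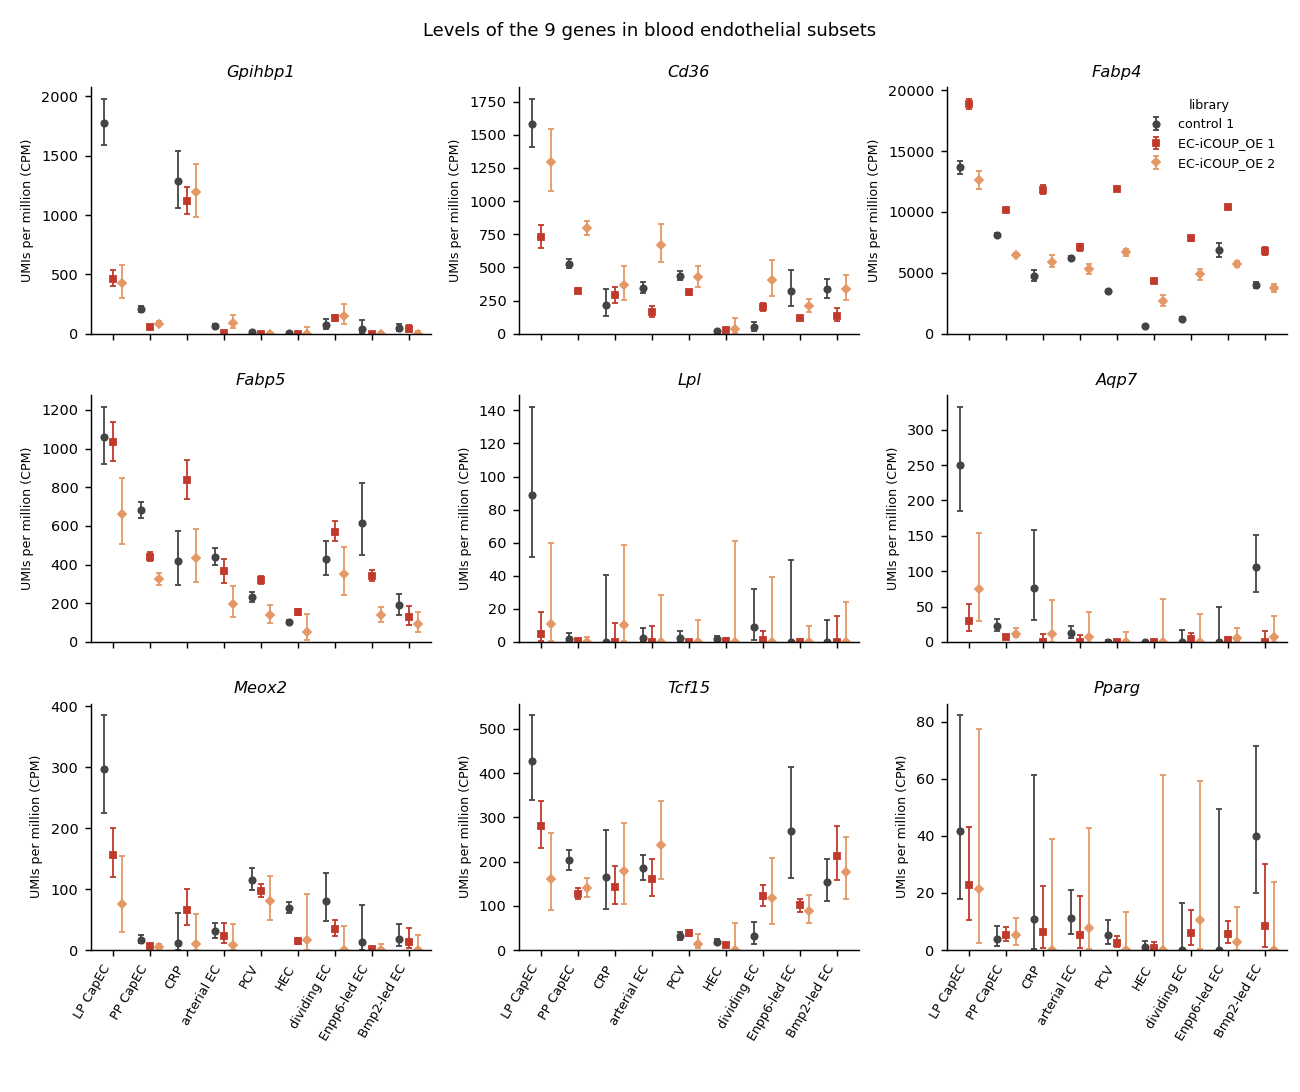
Levels of the 9 genes (y axis, CPM, linear, scale differing by panel) in each blood endothelial subset (x axis). Points are the control library and the 2 EC-iCOUP_OE libraries, and bars are exact 95% Poisson intervals that cover counting error only. LP CapEC had the highest point for all 9 genes in the control and for all but *Gpihbp1* in replicate 1. In replicate 2 they had it for all but *Gpihbp1*, *Meox2* and *Tcf15*. Intervals overlapped those of the next subset for *Pparg* in every library and for *Tcf15* in the control and replicate 1. The same held for *Fabp5* and *Lpl* in both EC-iCOUP_OE libraries. No share over all genes stands beside these ranks, which are a description only.

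*Cd36* (chromosome 5, 17781690 to 17888801, minus strand), the fatty acid receptor, was highest in LP CapEC in every library. It stood at 1580.2 CPM in the control, 730.0 CPM in replicate 1 and 1294 CPM in replicate 2, against 528, 325 and 796 CPM in PP CapEC, with the intervals of the 2 subsets apart in each library. In contrast to *Gpihbp1*, it was spread over the vascular tree, with 346, 163 and 673 CPM in arterial EC and 438, 312 and 428 CPM in PCV. HEC were the exception, at 24.9, 28.8 and 33.2 CPM. In CRP, where *Gpihbp1* was abundant, *Cd36* was at 219.5, 289 and 369 CPM, below PP CapEC in all 3 libraries, though within counting error of it in replicate 1.

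*Fabp4* (chromosome 3, 10204088 to 10208576, minus strand), the cytosolic fatty acid carrier also known from adipocytes, had the most UMIs of the 9 genes. In LP CapEC it reached 13669 CPM in the control, 18855 CPM in replicate 1 and 12616 CPM in replicate 2, and in PP CapEC 8116, 10179.9 and 6485 CPM. LP CapEC ranked first of all blood EC subsets in each library, with intervals apart from the next, which was PP CapEC in the control and PCV in both EC-iCOUP_OE libraries. PCV had 3519.95, 11921 and 6679 CPM, and HEC 651, 4325 and 2706 CPM.

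*Fabp5* (chromosome 3, 10012548 to 10016607, plus strand), a second fatty acid carrier, was at 1059, 1033 and 663 CPM in LP CapEC and at 683, 439.9 and 324.5 CPM in PP CapEC. LP CapEC were again highest, but CRP came within counting error of them in both EC-iCOUP_OE libraries, at 836 and 432 CPM. Its level is uncertain, because 5 processed pseudogenes share at least 90% identity with its transcript over 300 bases or more. PCV and HEC were low, at 233, 318 and 141 CPM and at 102, 154 and 49.8 CPM.

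*Lpl* (chromosome 8, 68880491 to 68907448, plus strand), the lipase itself, was rare in blood EC and had 33, 6 and 2 UMIs there in total. Of the 33 in the control, 17 were in LP CapEC, spread over 11 of 111 cells, which gave 88.7 CPM. PP CapEC held 3 UMIs, so the LP level was 46.2-fold higher in that library, a log2 ratio of 5.53 (3.74 to 7.94). Replicates 1 and 2 had 2 and 1 UMIs in LP CapEC, at 5.05 and 10.7 CPM. Outside the blood EC it was at 248.8 CPM in control fibroblasts and at 108, 101 and 128 CPM in pericytes and smooth muscle. Among the 11 control LP cells with *Lpl*, 1 also had a UMI of a fibroblast or pericyte marker, against 21 of all 111 cells.

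*Aqp7* (chromosome 4, 41033074 to 41048139, minus strand), the glycerol channel, was highest in LP CapEC in every library. They held 48, 12 and 7 UMIs, or 250.3, 30.3 and 74.8 CPM, and PP CapEC 23.0, 6.36 and 11.9 CPM. The intervals of the subsets were apart in each library. The *Bmp2*-led EC of the control came second with 105 CPM, followed by CRP with 76.8 CPM. In replicate 1 neither the *Bmp2*-led EC nor CRP had a single *Aqp7* UMI.

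*Meox2* (chromosome 12, 37108540 to 37179534, plus strand), a homeobox gene, separated the capillaries by a wider margin than any other member with at least 50 UMIs. It was at 297, 157 and 74.8 CPM in LP CapEC and at 16.6, 6.96 and 4.26 CPM in PP CapEC. It was also a gene of venules, with 115.5, 97.4 and 79.8 CPM in PCV and 68.7, 14.8 and 16.6 CPM in HEC. PCV and LP CapEC could not be told apart in replicate 2, where LP CapEC held 7 UMIs.

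*Tcf15* (chromosome 2, 152143561 to 152149097, plus strand), the partner of MEOX2, did not share this pattern. It was at 428, 280.4 and 160.4 CPM in LP CapEC, 203, 127 and 139.7 CPM in PP CapEC, 185, 160.3 and 237 CPM in arterial EC and 165, 143 and 179 CPM in CRP. The intervals of neighbours in the upper part of the order overlapped in every library, and venules were low, at 30.7, 38.2 and 14.5 CPM in PCV. *Pparg* (chromosome 6, 115360951 to 115490399, plus strand) was scarce, with 8, 9 and 2 UMIs in LP CapEC, at 41.7, 22.7 and 21.4 CPM, and 6, 17 and 6 UMIs in PP CapEC, at 3.84, 5.15 and 5.11 CPM. It overlaps an antisense gene, and its level in any one subset rests on few molecules.

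Set against PP CapEC within each library, 3 members passed the size rule as higher in LP CapEC and none as lower, of 7 with at least 50 UMIs in the 2 subsets together. Across all 8779 genes with that many UMIs, 0.809% were higher and 0.399% lower by the same rule. Because the members were chosen with earlier results of these data known, setting them beside all genes is a description only. *Meox2* had the widest margin, 17.9-, 22.5- and 17.6-fold, a mean log2 ratio of 4.26 ± 0.20 (SD, n = 3 libraries). *Gpihbp1* was 8.47-, 8.25- and 4.92-fold higher (2.81 ± 0.44), and *Aqp7* 10.9-, 4.77- and 6.28-fold higher (2.78 ± 0.61). For *Meox2* and *Gpihbp1* the control ratio lay within the counting interval of replicate 1, and for *Gpihbp1* it lay above that of replicate 2 (1.73 to 2.84).

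The other 4 compared members were also higher in LP CapEC in each library, by less. The log2 ratios of *Cd36* were 1.58, 1.17 and 0.70, with every interval above 0. Those of *Fabp4* were 0.75, 0.89 and 0.96, and those of *Fabp5* 0.63, 1.23 and 1.03. *Tcf15* gave 1.07, 1.14 and 0.20, and the interval of the last ran from -0.67 to 0.96, so no difference was detectable in replicate 2. The median of the 7 mean log2 ratios was 1.15, against -0.01 over all genes compared. Without replicate 2, *Cd36* and *Tcf15* passed the rule as well. *Lpl* and *Pparg* had too few UMIs to be counted, and *Pparg* gave log2 ratios of 3.44, 2.14 and 2.07, of which the last had an interval from -1.28 to 4.55.

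**Figure D2:**
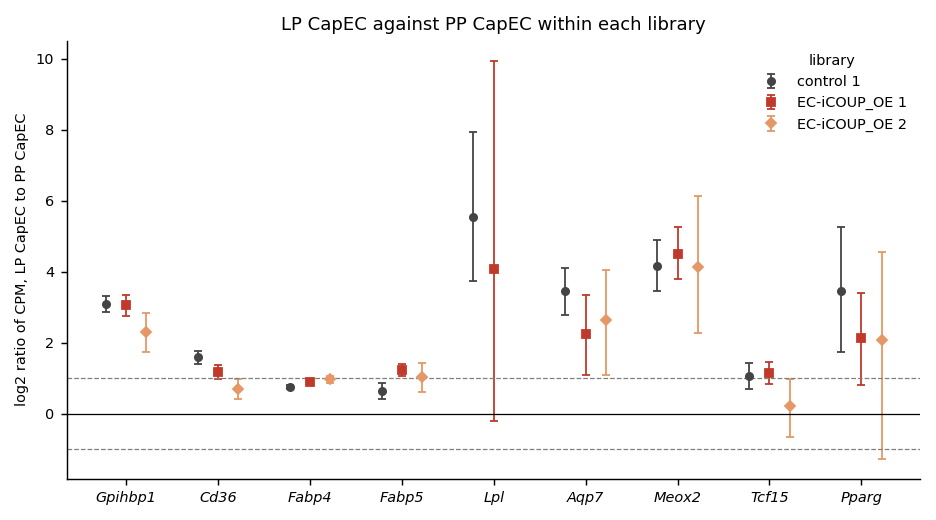
Ratio of LP CapEC to PP CapEC in each library (y axis, log2 of the ratio of CPM) for each gene (x axis), with exact conditional 95% counting intervals and dashed lines at 2-fold. *Meox2*, *Gpihbp1* and *Aqp7* lie above the upper line in all 3 libraries, *Lpl* of EC-iCOUP_OE replicate 2 is not drawn because PP CapEC held no UMI, and the *Lpl* and *Pparg* intervals are wide.

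The LP CapEC cluster mixed cells of several study labels, so the levels were also taken over the cells that carried a label of the study, which in the shortened list of labels used here all came from EC-iCOUP_OE mice (24 and 23 LP CapEC, 533 and 838 PP CapEC in replicates 1 and 2). *Gpihbp1* was at 579.6 and 832 CPM in the LP cells and 23.0 and 84.7 CPM in the PP cells. *Cd36* stood at 1111 and 1767 CPM against 235 and 627 CPM, *Fabp4* at 22075 and 15636 CPM against 10047 and 6117 CPM, and *Tcf15* at 370 and 312 CPM against 121 and 136 CPM. *Meox2* had 193 and 62.4 CPM against 7.25 and 5.58 CPM. All 7 genes compared above were higher in the labelled LP cells of both libraries. Of these, *Meox2* rested on 12 and 3 UMIs in the LP cells and *Aqp7* on 3 and 5. No share over all genes stands beside this count, which is a description only. The study drew its labels from the expression of these same cells, and describes LP EC by genes of transport and barrier formation. Whether the members took part in that labelling is not stated, so the labelled cells are no independent check. In labelled CRP, *Gpihbp1* was at 874 and 940 CPM, with intervals that overlapped those of the LP cells in both libraries.

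Between genotypes, *Gpihbp1* and *Aqp7* passed the size rule as lower in EC-iCOUP_OE LP CapEC, and no member passed as higher, of 7 compared. In that comparison 3.63% of 2312 genes were lower and 5.67% higher. *Gpihbp1* gave log2 ratios to control of -1.94 (-2.20 to -1.67) in replicate 1 and -2.06 (-2.57 to -1.58) in replicate 2, to 0.261 and 0.24 of the control level. Both libraries lay far below the control, with intervals that overlapped each other. *Aqp7* gave -3.05 (-4.09 to -2.11) and -1.74 (-3.13 to -0.59), from 48 UMIs in the control and 12 and 7 in the replicates.

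The other compared members did not pass in LP CapEC. *Meox2* gave -0.92 and -1.99, *Tcf15* -0.61 and -1.41, and *Cd36* -1.11 and -0.29. The interval of *Cd36* in replicate 2, from -0.60 to 0.02, reached no change. *Fabp5* was at -0.04 and -0.68. *Fabp4* moved in opposite directions in the replicates, at 0.46 (0.40 to 0.53) and -0.12 (-0.22 to -0.02). *Lpl*, too rare to be compared, was at -4.13 (-7.29 to -2.06) and -3.05 (-8.44 to -0.38). The median of the 7 was -1.01, against 0.01 over all genes compared. Without replicate 1, *Meox2* and *Tcf15* passed as lower as well, and without replicate 2, *Cd36* did. All of these ratios share the 1 control library.

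The cells called LP CapEC also differed between genotypes in other ways. Their median depth was 1428, 3000.5 and 2191.5 UMIs per cell. The summed level of the 6 capillary markers was 5757 CPM in the control and 2362 and 3635 CPM in EC-iCOUP_OE, and that of the 5 PCV markers 172, 371 and 492 CPM. CRP markers, by contrast, were level at 438, 475 and 503 CPM. Fibroblast markers were at 104 CPM with 5 of 7 detected in the control, and at 2.53 and 0 CPM in EC-iCOUP_OE. Lymphatic markers were at 52.2, 152 and 74.8 CPM, with *Prox1*, *Pdpn* and *Reln* at 0 in all libraries. The part of these differences in the lower *Gpihbp1* and *Aqp7* was not tested. No adipocyte marker of 6 had a UMI in LP CapEC of any library.

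In PP CapEC, *Gpihbp1* and *Meox2* passed the size rule as lower in EC-iCOUP_OE, of 7 members compared, where 2.38% of 8531 genes were lower and 3.97% higher. *Gpihbp1* gave -1.90 (-2.17 to -1.63) and -1.27 (-1.61 to -0.95), and *Meox2* -1.26 (-2.13 to -0.39) and -1.97 (-3.70 to -0.56) from 26, 23 and 5 UMIs. Next came *Aqp7* with -1.86 and -0.95, *Fabp5* with -0.63 and -1.07, and *Tcf15* with -0.68 and -0.54. Each was lower in both replicates. *Cd36*, at -0.70 and 0.59, and *Fabp4*, at 0.33 and -0.32, moved in opposite directions in the replicates. The median of the 7 was -0.85, against -0.05 over all genes compared. This comparison depended on the grouping of cells: at clustering resolution 0.6 and with every cell given equal weight no member passed, the mean ratio of *Gpihbp1* being -1.08 and -1.20, and at resolution 1 *Meox2* turned to 1.29.

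The *Gpihbp1* ratio of PP CapEC was not the same in its clusters, and those of the genotypes lay mostly in different ones. A cluster led by *Scgb3a1*, *Cxcl12* and *Hcar1* held 363 control cells and 31 and 28 of EC-iCOUP_OE, while those led by *Gm13889* and by *Ramp3* held 14 and 13 control cells against 447 and 316 of replicate 1. In the cluster led by *Scgb3a1*, *Esm1* and *Igfbp3*, the only one with at least 50 cells of every library, *Gpihbp1* was at 191, 259.7 and 131 CPM, ratios of 0.44 (-0.10 to 0.98) and -0.54 (-1.21 to 0.10). No difference was detectable there, and *Tcf15* was higher in both replicates, at 1.29 and 0.996. The mean ratios of *Aqp7* and *Fabp5*, negative over all PP CapEC, were 0.20 and 0.09 in this cluster. In the cluster led by *Hamp*, *Ltc4s* and *Aqp1*, *Gpihbp1* was at 346, 28.2 and 214.5 CPM, the ratios being -3.62 and -0.69. That cluster held 17 of the 26 control *Meox2* UMIs of PP CapEC, and 4 and 0 in the replicates. The *Meox2* ratios of PP CapEC thus rested largely on it, and none was taken without it. It had no capillary marker among its 10 leading genes and a capillary score of 0.02. Of its 54 cells with a study label, 49 were PP CapEC.

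Taking every blood EC cluster with at least 10 cells in each library by itself, 16 in all, *Gpihbp1* had a ratio in both replicates in 13. It was lower in both in 7 of these and higher in both in 1, and passed the 2-fold mark in 3, all as lower. *Meox2* was lower in both replicates in 6 of 7 clusters and higher in none, and *Aqp7* lower in 4 and higher in 1 of 6. *Fabp5* was lower in both in 9 of 16 clusters and higher in 1, and *Cd36* lower in 6 and higher in 2 of 16. *Tcf15* was split, lower in 6 and higher in 6 of 15. *Fabp4* was higher in both in 5 of 16 and lower in none. Here a library without a UMI entered at a floor of 3 UMIs. Direction was taken from the sign of each ratio, whatever its interval. *Cd36* in the *Colec12*-led cluster counted as lower at -0.30 (-0.98 to 0.42) in replicate 1 and -0.17 (-3.29 to 1.84) in replicate 2. The clusters come from the same libraries and share 1 control, so they are not replicates of each other. No share over all genes stands beside these counts, which are a description only.

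**Figure D3:**
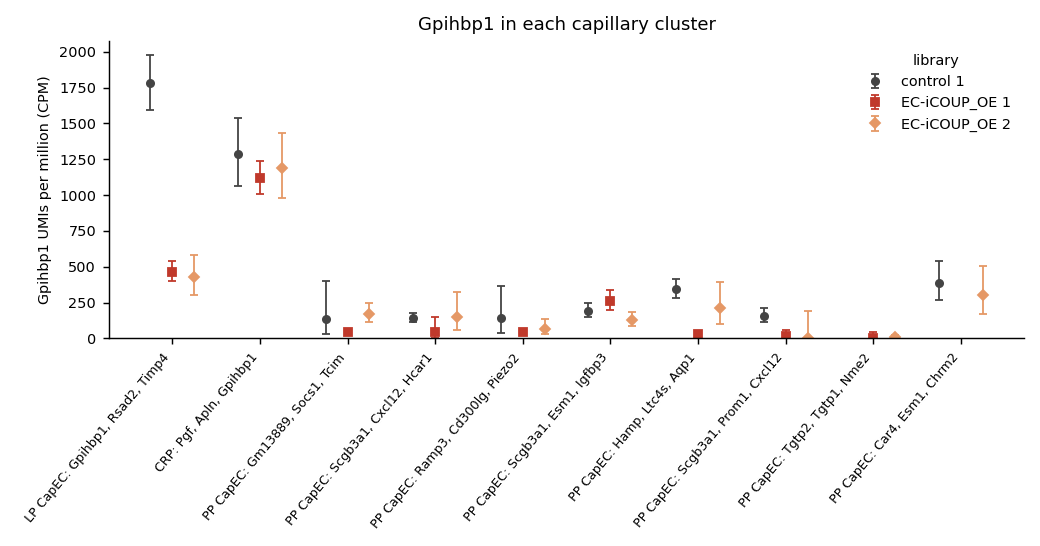
*Gpihbp1* level (y axis, CPM, linear) in each capillary cluster (x axis, subset and 3 leading genes), by library, with exact 95% Poisson intervals, where a library had at least 10 cells. Control points stand far above both EC-iCOUP_OE points in LP CapEC (1778 against 465 and 428), not in CRP (1284 against 1118 and 1191), and PP CapEC clusters differ in the size and direction of the gap.

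PP CapEC also differed in markers of other cells. HEC markers summed to 1482 CPM in the control and 83.9 and 14.5 CPM in EC-iCOUP_OE, haemoglobin transcripts to 2052, 249.8 and 32.4 CPM, fibroblast markers to 93.4, 0.908 and 5.11 CPM, and PCV markers to 105, 644 and 466 CPM. Capillary markers were at 4424, 2782 and 5898 CPM and thus did not order by genotype. The part of these differences in the *Gpihbp1* and *Meox2* ratios was not tested.

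In CRP, *Gpihbp1* had log2 ratios of -0.20 (-0.50 to 0.11) and -0.11 (-0.49 to 0.28). Both counting intervals included 0 and lay above those of LP CapEC. *Nr2f2* in CRP was at 11.0 CPM in the control, from 1 UMI, and at 1466 and 717 CPM in EC-iCOUP_OE. None of the 5 members compared passed the rule (6.89% of 1698 genes were higher and 2.59% lower). *Fabp4* was at 1.31 and 0.32, *Fabp5* at 1.00 and 0.05, and *Cd36* at 0.40 and 0.75. *Aqp7*, too rare to be compared, had 7 UMIs in the control and 0 and 1 in EC-iCOUP_OE. Whether the genotype ratio of *Gpihbp1* differs between CRP and LP CapEC was not tested, since both rest on the same control library.

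In arterial EC none of 5 compared members passed (1.85% of 4208 genes were higher and 2.28% lower), and the replicates parted. *Gpihbp1* gave -3.09 in replicate 1, from 3 UMIs, and 0.45 in replicate 2, and *Cd36* gave -1.09 and 0.96. Of the 95 arterial EC that carried a label of the study, 84 were labelled PP CapEC, so this subset was drawn more widely here. In PCV none of 5 passed either (3% of 7864 genes were higher and 2.07% lower). *Fabp4* was the nearest, at 1.76 (1.72 to 1.80) and 0.92 (0.85 to 1.00), and it was higher in both of the larger PCV clusters, with 1.596 and 0.68 in one led by *Hdc* and 1.74 and 1.03 in one led by *Cytl1*. *Meox2* in PCV was at -0.25 and -0.53, with both intervals reaching 0, and in the *Hdc*-led cluster alone at -0.56 (-0.93 to -0.18) and -0.94 (-1.79 to -0.18).

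**Figure D4:**
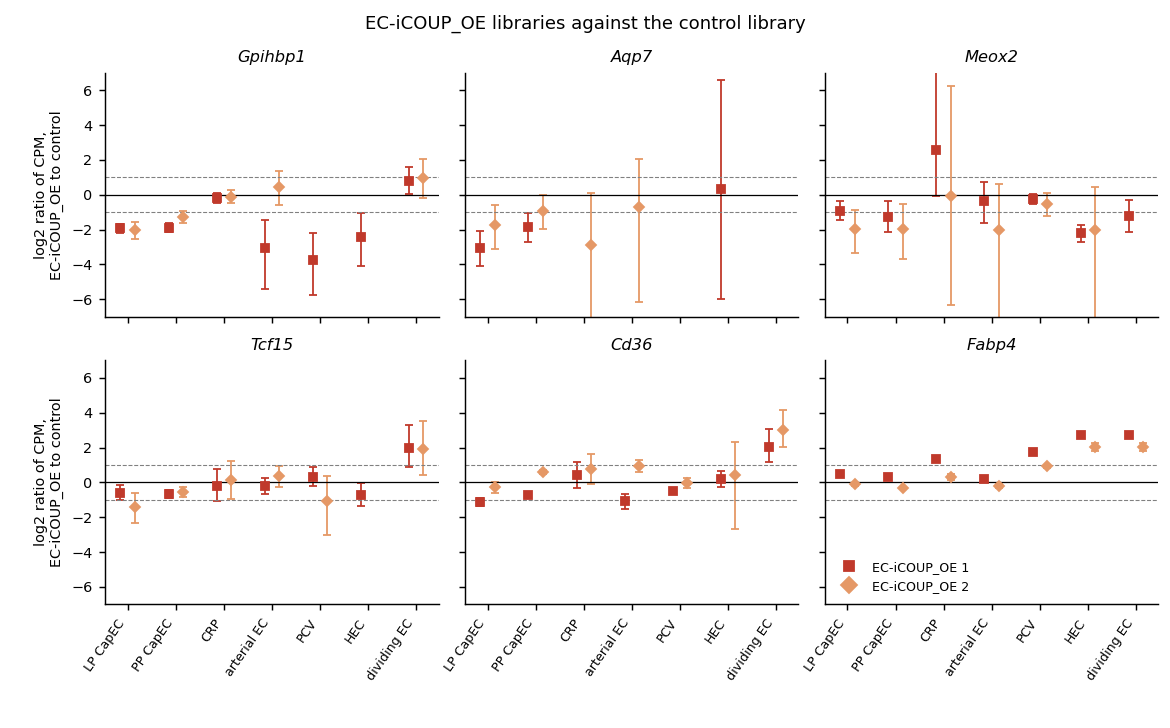
Ratio of each EC-iCOUP_OE library to the control library (y axis, log2 of the ratio of CPM) for 6 genes in 7 blood endothelial subsets (x axis), with exact conditional 95% counting intervals and dashed lines at 2-fold. *Gpihbp1* lies below the lower line in LP CapEC and PP CapEC and near 0 in CRP, *Fabp4* lies above the upper line in HEC and dividing EC, intervals past the axis end at it, and ratios with a library at 0 are not drawn.

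HEC of the genotypes came from different clusters and are described by cluster. One led by *Glycam1* held 361 control cells and 81 and 2 cells of EC-iCOUP_OE. The other, led by *Colec12*, had the lymphatic marker *Lyve1* and no HEC marker among its 10 leading genes, and held 98, 351 and 14 cells. In it *Fabp4* was higher in EC-iCOUP_OE, at 1276, 5124 and 2830.3 CPM, ratios of 2.01 (1.90 to 2.11) and 1.15 (0.89 to 1.402), and *Meox2* was lower, at 70.2, 14.6 and 18.6 CPM, ratios of -2.27 and -1.92. The last rests on 1 UMI, with an interval from -7.25 to 0.64. In the *Glycam1*-led cluster *Fabp4* was at 516 CPM in the control and 1781 CPM in replicate 1, and *Meox2* at 68.4 and 15.4 CPM. With both clusters summed these were the members past the rule, of 5 compared, *Fabp4* with 2.73 and 2.06 and *Meox2* with -2.22 and -2.05, where 6.56% of 8063 genes were higher and 0.794% lower.

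The HEC markers themselves summed to 75825, 5419 and 2208 CPM in HEC, and capillary markers to 386, 769 and 1577 CPM. *Fabp4* was also unequal in cells that are not endothelial. Pericytes and smooth muscle had 2579, 4483 and 401 CPM, control lymphocytes 305 CPM and those of replicate 1 1414 CPM, so replicate 1 was higher there as well and replicate 2 was not. How far free RNA entered the *Fabp4* ratios was not tested.

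Dividing EC gave 3 members past the rule, all higher in EC-iCOUP_OE, of 5 compared, where 9.11% of 3646 genes were higher and 2.06% lower. *Fabp4* was at 1193, 7823 and 4877 CPM (2.71 and 2.03), *Cd36* at 49.2, 202 and 403 CPM (2.04 and 3.03) and *Tcf15* at 31.3, 121 and 117 CPM (1.95 and 1.90). *Gpihbp1* was at 76.0, 129 and 148 CPM, ratios of 0.77 and 0.97. The 23 dividing cells of the control had HEC markers at 34902 CPM and capillary markers at 425 CPM, whereas those of EC-iCOUP_OE had HEC markers at 1184 and 626 CPM and capillary markers at 1369.5 and 1537 CPM. Genotype and the vessel type of the dividing cells cannot be told apart here.

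The 73 other lipid genes did not follow the members. Between LP and PP CapEC, 39 of them were compared, and *Aqp1*, a water channel, was the only one to pass, with log2 ratios of 1.83, 1.31 and 2.31. Of all genes compared 0.809% were higher, and the median of the 39 was -0.03. Among them, 8 genes of mitochondrial fatty acid oxidation had a median of -0.16 and none passed, and of 5 fatty acid transport proteins and acyl-CoA synthetases none passed, with a median of -0.16. The 7 lipases and lipase cofactors had a median of 0.57, and the 5 nuclear receptors and coactivators -0.01, again with none past the rule.

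Between genotypes, 38 other lipid genes were compared in PP CapEC, where 3.97% of all genes compared were higher and 2.38% lower. *Hilpda*, which protects lipid droplets from lipolysis, was higher, at 24.3, 51.2 and 94.5 CPM, ratios of 1.07 and 1.96. *Aqp1* was lower by log2 ratios of -1.999 and -1.68, *Mgll*, which splits monoglycerides, by -1.25 and -1.02, and the fatty acid transport protein gene *Slc27a3* by -1.54 and -1.002. *Aqp1* was also lower in LP CapEC (-2.52 and -1.20), the only one of 12 to pass there, in CRP (-3.32 and -2.09), the only one of 9, and in arterial EC (-2.38 and -1.66), the only one of 23. Of all genes compared, 3.63%, 2.59% and 2.28% were lower in LP CapEC, CRP and arterial EC. In HEC *Acsl3* and *Rxrb* were higher, of 35, where 6.56% of all genes compared were higher. In dividing EC *Mgll* and *Tcf3* were higher, of 15, where the share over all genes was 9.11%.

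To find genes of like pattern, each member with at least 200 UMIs in blood EC was correlated with 8524 genes over 26 sums of cells. *Lpl* and *Pparg* had fewer UMIs and were left out. The sums were 1 per blood EC subset and library with at least 20 cells. These sums share libraries, depth and cell classes, and the coefficients describe them without a test. *Gpihbp1* was most like *Kcna5* and *Ctnnbip1* (Pearson's r of log2 levels 0.916 for both) and *Col4a2* (0.868). *Tcf15* was most like *Cd81* (0.909), *Myct1* (0.867) and *Mgll* (0.862), and *Aqp7* most like *Aqp1* (0.819). *Fabp4* followed *Sash1* (0.874), *Cd36* followed *Sec14l1* (0.847), and *Fabp5* followed *Ctnnbip1* (0.805). *Meox2* had the loosest match, *Stxbp6* at 0.693. Among the members themselves *Gpihbp1* and *Fabp5* were closest (0.733) and *Meox2* and *Tcf15*, the partners of the heterodimer, farthest apart (-0.159).

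Outside the blood endothelium, lymphatic EC had *Gpihbp1* at 241 and 482 CPM in the EC-iCOUP_OE libraries, where they were numerous, near the LP CapEC level in replicate 2. They also held *Lpl* at 98.6 and 58.1 CPM and *Fabp4* at 1096 and 673 CPM, the latter far below the capillaries. Glia had *Fabp5* at 1187 CPM in the control, above LP CapEC at 1059 CPM. Fibroblasts held 1790 of the *Lpl* UMIs in the control and had almost no *Gpihbp1*, at 2.22 CPM, whereas in replicate 1, with 10 fibroblasts, 234 *Lpl* UMIs were in lymphatic EC and 103 in pericytes and smooth muscle. In the order control, replicate 1 and replicate 2, blood EC held 33 of 1966, 6 of 365 and 2 of 67 *Lpl* UMIs of all kept cells, and 934 of 1009, 864 of 1476 and 282 of 429 *Gpihbp1* UMIs.

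**Figure D5:**
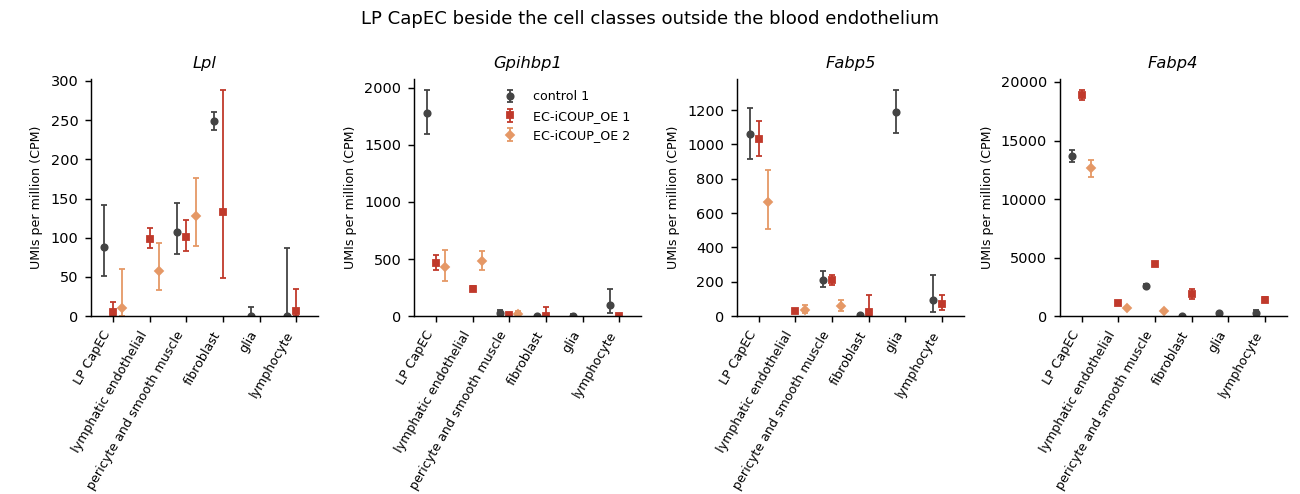
Levels of 4 genes (y axis, CPM, linear, scale differing by panel) in LP CapEC and in cell classes outside the blood endothelium (x axis), by library, with exact 95% Poisson intervals, for groups of at least 10 cells. *Lpl* is highest in control fibroblasts (248.8) and *Gpihbp1* in control LP CapEC (1778), while *Fabp5* of control glia (1187) reaches the level of LP CapEC.

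COUP-TFII and PPARG both belong to the nuclear receptor family, whose members recognise variants of the sequence AGGTCA. The stretch before the transcription start was read for this exact sequence on either strand, and variants were not counted. RefSeq promoter entries were at hand for 4 members, *Cd36*, *Aqp7*, *Meox2* and *Pparg*, with 7 entries in all. The 3 below are shown because *Aqp7* and *Meox2* were among the genes with the widest LP to PP and genotype differences and *Cd36* passed the rule neither between the capillaries nor between genotypes in LP or PP CapEC. Each is the 250 bases before the start on GRCm38.p6, 5′ to 3′ on the strand of the gene, with AGGTCA or its complement TGACCT in capitals. They lie at chr5:17835897-17836146 (minus strand), chr4:41048137-41048386 (minus strand) and chr12:37108290-37108539 (plus strand).
Cd36: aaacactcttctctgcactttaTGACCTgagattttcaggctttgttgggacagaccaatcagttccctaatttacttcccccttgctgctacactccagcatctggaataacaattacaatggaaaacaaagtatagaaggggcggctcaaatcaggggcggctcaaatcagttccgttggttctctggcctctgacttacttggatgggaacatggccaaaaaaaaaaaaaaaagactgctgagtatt
Aqp7: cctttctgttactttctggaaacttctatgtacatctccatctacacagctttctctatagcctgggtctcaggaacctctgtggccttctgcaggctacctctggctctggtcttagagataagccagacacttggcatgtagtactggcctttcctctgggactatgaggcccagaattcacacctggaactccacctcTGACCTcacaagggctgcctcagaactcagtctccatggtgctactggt
Meox2: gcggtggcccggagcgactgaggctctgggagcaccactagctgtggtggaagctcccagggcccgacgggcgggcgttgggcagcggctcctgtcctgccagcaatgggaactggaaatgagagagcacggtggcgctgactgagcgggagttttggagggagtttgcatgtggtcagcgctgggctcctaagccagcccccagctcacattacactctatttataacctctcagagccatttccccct
Of the stretches shown, those of *Cd36* and *Aqp7* each held 1 match and that of *Meox2* none. The other *Aqp7* entry, not shown, held 2. The *Cd36* stretch lies inside the span of the gene given above. Of the 7 entries 5 held the sequence, as did 14.0% of 32851 promoter stretches of the same length. The *Aqp7* entries overlap each other, the counts are a description, and no binding was measured in these data. The study searched conserved regions for the shorter COUP-TFII motif GGTC(A/G) next to a motif of NKX homeodomain factors. That search was not made here. The *Meox2* stretch holds GGTCA, but no share over all promoter stretches was taken for this shorter motif.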

How the data were processed

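Single-cell RNA was measured in 3 libraries of mouse Peyer's patch endothelium, 1 control and 2 EC-iCOUP_OE, grouped by the submitters' labels. The deposited count matrices were made by the authors with Cell Ranger (3.0.2 for control and EC-iCOUP_OE replicate 2, 3.1.0 for replicate 1, per the file headers) on mm10, and hold raw UMI counts per gene and barcode. The labels name both a v2 kit and a v3 platform. Subset names that the authors gave to 1999 EC-iCOUP_OE cells were read from the source data of the study, a shortened list in the form used here, and 1923 of these cells were among the blood EC kept. The members and lists were chosen with earlier results of these data known.

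Barcodes had to hold 500 genes and 1000 UMIs or more, with no more than 10% of UMIs mitochondrial (5473, 4750 and 1243 in the order control, replicate 1 and replicate 2). Scrublet calls at an expected rate of 6% (2.41%, 0.968% and 0.322%) were removed, and the rate in replicate 2 is too low to count as working. Cells with markers of other classes (36, 11 and 12) were left out of the blood EC. Seurat 5.3.0 (R 4.3.3) was used to normalize, integrate and cluster the cells (2000 variable genes, 30 components, 20 neighbours) with the members and the 73 other lipid genes left out of the variable genes. Clusters were named from marker lists at resolution 2, the lowest tried that gave a cluster with the study's LP capillary label as its most frequent; none did up to 1.6. That cluster scored slightly higher for the CRP list than for the capillary list, and was still named LP CapEC, which departs from the naming rule. Cutoffs between cell classes were set after the clusters had been seen.

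UMIs were summed per subset and library and scaled to CPM, in Python 3.11.15 with numpy 2.4.6, scipy 1.17.1 and pandas 2.3.3. Intervals are exact Poisson for levels, exact conditional for ratios and Clopper-Pearson for shares, at 95%, and cover counting error only. A library at 0 was set to a floor of 3 UMIs in a ratio, which is then a bound. Genes with at least 50 UMIs over the libraries compared were counted. Shares of cells were taken after thinning each cell to 1000 UMIs. Nothing says that libraries came from separate animals or days, and no p-value was computed. All 9 members were named, and of the other lipid genes those past the size rule, at most 4 in each direction, with 1 gene not reported here. Likeness was Pearson's r of log2(CPM + 10). The summing and calling steps were tested on simulated data. Alternatives were other resolutions, lipid genes allowed in the clustering, no doublet removal, the study's labels, TMM scaling (edgeR 4.0.16), equal weight for cells, other UMI minimums and fold limits, and leaving out each library. Gene coordinates were read from the GENCODE vM21 annotation of GRCm38, and similar transcripts were searched with BLAST 2.17.0.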

Additional observations from a re-analysis of the deposited data

Results flagged for a closer look

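*Tcf15*, the partner gene of *Meox2*, had log2 ratios of EC-iCOUP_OE to control of opposite sign in different subsets. In dividing EC they were 1.95 in replicate 1 and 1.90 in replicate 2, in LP CapEC -0.61 and -1.41, and in PP CapEC -0.68 and -0.54. Both replicates were thus higher than the control in dividing EC and lower in both capillary subsets, which is why these values were singled out, and the difference between subsets was not tested. Within the PP CapEC cluster led by *Scgb3a1*, *Esm1* and *Igfbp3*, the *Tcf15* ratios were 1.29 and 0.996. The dividing EC of the control carried HEC markers at 34902 CPM against 1184 and 626 CPM in EC-iCOUP_OE, and their part in the *Tcf15* ratio was not tested.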

How the results depend on the processing

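Counts of members past the size rule depended on the fold limit, the UMI minimum and the grouping of cells. Shares over all genes were computed for the main setting only. The counts under other settings therefore have no such share beside them and are a description only. In LP against PP CapEC, 3 members were higher; the study's labels carried over to the nearest cells gave 5, cells with a study label alone 5 of 5 compared, a 1.5-fold limit 6 and a minimum of 200 UMIs 1, and leaving out 1 library gave 3 to 5 (5 without EC-iCOUP_OE replicate 2). In PP CapEC, 2 were lower in EC-iCOUP_OE; resolution 0.6 gave 0, equal weight for cells 0, the cluster with at least 50 cells of every library 0, a minimum of 200 UMIs 1 and a 1.5-fold limit 4. In LP CapEC, 2 were lower, with 1 at 200 UMIs, 4 at 1.5-fold and 3 to 4 without 1 replicate. Over the other 5 subsets, 4 were higher, with 2 without replicate 1 and 7 without replicate 2, and 1 was lower, with 2 at a minimum of 10 UMIs and 3 without either replicate. Chosen after seeing the data, resolution 1 gave 1 lower member in PP CapEC, and *Meox2* there turned from -1.61 to 1.29; the cause was not tested.

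The mean log2 ratio of *Gpihbp1* ranged from 2.67 to 3.98 in LP against PP CapEC, from -2.07 to -1.59 between genotypes in LP CapEC and from -2.57 to -0.05 in PP CapEC, where the last is the mean of replicates of opposite sign. *Aqp7* ranged from 2.45 to 3.14 and *Meox2* from 3.72 to 4.74 in LP against PP CapEC. Between genotypes in PP CapEC, *Aqp7* ranged from -2.64 to 0.20, *Fabp5* from -1.18 to 0.09 and *Tcf15* from -1.07 to 1.14, each positive only in the cluster with at least 50 cells of every library. Of 112 counts recomputed 93 stayed within 1.5 times, where a count of 0 that stayed 0 was taken as unchanged. In the main setting 0 members were lower in LP than in PP CapEC. Likewise 0 were higher in EC-iCOUP_OE in PP CapEC and in LP CapEC. Of the single-gene ratios 292 counted as unchanged, 33 moved, 30 newly passed the rule, 17 no longer passed and 1 reversed. Unchanged means that a member past the rule still passed, or that another mean stayed within the SD of the libraries. The sign of the latter was not checked. In a genotype comparison, leaving out 1 replicate cannot shift a mean beyond that SD. Resolutions 0.6, 1 and 1.6 gave no LP CapEC cluster, and some alternatives gave no value for some of the other 5 subsets. No paired analysis was possible because there was 1 control library and no result comes from a test. Depth limits *Lpl*, *Pparg*, *Aqp7* and *Meox2*, which had 7 or fewer UMIs each in LP CapEC of EC-iCOUP_OE replicate 2.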
